A study of Talpa occidentalis and Mus musculus with 35 samples.

Results

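NANOG and POU5F1 (also known as OCT4) were described here as gene models in the genome annotation of the Iberian mole Talpa occidentalis, assembly talOcc3. Every gene line was taken whose name, without a trailing low-confidence mark or copy number, was NANOG or POU5F1. This gave 8 of the 23336 gene lines, 7 for NANOG on 6 scaffolds and 1 for POU5F1. The members were chosen by their names and selected on the number of loci per name, so these counts are a description and carry no test.

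The series sequenced polyadenylated RNA of gonads from moles, whose females carry ovotestes, and from mice, in 35 libraries of 16 groups. The 19 mole libraries came from wild-type animals: ovotestis and testis at embryonic day 15 (2 each), at postnatal day 7 the testis and the ovarian and testicular parts of the ovotestis (3 each), and those tissues in adults (2 each). Of the 16 mouse libraries, 12 were wild-type CD1 ovary or testis at embryonic day 13.5, postnatal day 7 and 10 weeks, and 4 were ovaries at embryonic day 13.5 from an Fgf9 mutant and its wild-type B6 control, with 2 per group. The labels name the mutant's gene without its allele, promoter or driver. The annotation holds no value per library, so no expression of either gene was analysed here, tissue markers could not be checked, and library depth is unknown. The replicates of the groups therefore enter no value below, and each gene model is a single observation.

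NANOG is a homeodomain transcription factor and POU5F1 is a POU domain transcription factor. Both act with SOX2 in the network that keeps embryonic stem cells pluripotent, and both are expressed in early germ cells of the fetal gonad. NANOG is known in several mammals for processed pseudogenes, which are intronless copies made by reverse transcription of its mRNA. Such copies are inherited only when they arise in germ cells or their precursors.

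Coding exons of the mouse genes serve as the reference for the mole models. The pair below lies in the DNA-binding parts of the proteins, and their lengths are compared with the mole parts further on. They are from GENCODE M21 on GRCm38, plus strand, 5′ to 3′; capitals mark the named exon and lower case the 20 transcript bases on each side of it. Mouse Nanog exon 3 (chr6:122712629-122712715, 87 bases) codes for the end of the homeodomain. Mouse Pou5f1 exon 2 (chr17:35509103-35509223, 121 bases) codes for the start of the POU-specific domain.
Nanog exon 3: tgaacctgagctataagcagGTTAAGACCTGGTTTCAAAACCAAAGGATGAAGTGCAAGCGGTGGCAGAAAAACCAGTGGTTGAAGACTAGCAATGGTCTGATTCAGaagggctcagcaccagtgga
Pou5f1 exon 2: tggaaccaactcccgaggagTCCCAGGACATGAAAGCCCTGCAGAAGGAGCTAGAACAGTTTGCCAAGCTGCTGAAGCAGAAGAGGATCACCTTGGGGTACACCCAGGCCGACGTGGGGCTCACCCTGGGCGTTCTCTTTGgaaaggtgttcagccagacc

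The model that carried the plain name NANOG was the highest-scoring one, and most of its coding sequence lay in an uninterrupted stretch. It lay on scaffold 7 (last annotated base 73948160) from 41024544 to 41025784 on the plus strand, and was labelled ALN. Its 909 coding bases, a multiple of 3, fell into parts of 776 and 133 bases separated by a gap of 332 bases. All 909 bases were aligned to positions 220 to 1131 of the reference transcript, with a score of 710, the highest of the symbol. Mouse Nanog has coding exons of 151, 266, 87 and 414 bases, stop codon included, separated by introns of 3604, 825 and 426 bases. The first mole part was thus longer than the longest mouse coding exon, and the only gap of the model was followed by 133 coding bases, whereas the last mouse intron is followed by 414.

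The second-ranked model reached 81.5% of the highest score and lay on a scaffold with no other gene model. NANOG_copy2 was on scaffold 2745 (last annotated base 4983) and ran from 2250 to 4983 on the plus strand. As the only gene model there, NANOG_copy2 sets that last base itself, which therefore does not show where the scaffold ends. Its 750 coding bases, a multiple of 3, formed parts of 246, 81 and 423 bases with introns of 1858 and 126 bases. Positions 391 to 1115 of its reference transcript were matched by 707 of these bases, 94.3% of the coding length, at a score of 579. Of the 2074 scaffolds, 1569 had their last annotated base at 4983 or before and 1521 held a single gene model. A scaffold annotated no further than this was thus common in the file. Scaffold lengths themselves were not available.

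NANOG_copy4 on scaffold 34 (last annotated base 19290751) shared the inner structure of NANOG_copy2. It ran from 2222389 to 2229989 on the plus strand, with parts of 483, 81 and 438 bases and introns of 6473 and 126 bases. The part of 81 bases followed by an intron of 126 bases occurred in these 2 of the 7 models. In mouse the coding exon before the last one, printed above, has 87 bases and the intron after it 426. The coding length of NANOG_copy4 was 1002 bases, a multiple of 3, but its match to the transcript covered 481 bases, 48.0% of it: 2 bases of the first part, all 81 of the second and 398 of the third. Its score of 313 was 44.1% of the highest. A share under 50% was unusual: 7.56% of all named loci (1624 of 21470) had one, NANOG_copy7 below among them.

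The models with a single coding part numbered 3, all labelled exonerate. NANOG_copy3 lay on scaffold 24 (last annotated base 33956546) at 3826496 to 3826988, minus strand, with 493 coding bases, which leave a remainder of 1 when divided by 3. It was matched over 446 bases to transcript positions 449 to 914, and its score of 320 was 45.1% of the highest. It was the one NANOG model whose coding length was not a multiple of 3.

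NANOG_copy5 lay on scaffold 13 (last annotated base 60706073) at 43484065 to 43484568, minus strand, with 504 coding bases, a multiple of 3. It was matched over 498 bases to transcript positions 547 to 1059, with a score of 300, 42.3% of the highest. Those positions contain the whole interval of NANOG_copy4, 557 to 1058 on the same transcript. NANOG_copy5 thus had in 1 uninterrupted part what NANOG_copy4 had in parts divided by introns. The model names of NANOG_copy3 and NANOG_copy5 cite the same source protein.

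NANOG_copy6 lay on scaffold 3 (last annotated base 88082451) from 38377414 to 38377983 on the plus strand, with 570 coding bases, a multiple of 3. It was matched over 569 bases to transcript positions 442 to 1043, with a score of 222, 31.3% of the highest. It had the longest aligned stretch of the 3 single-part models and the lowest score among them.

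The lowest-scoring model, NANOG_copy7, carried the name over a small stretch only. It lay on scaffold 7 at 28105239 to 28134249, minus strand, was labelled ALN, and had 10 parts of 14 to 237 bases with 918 coding bases in all, a multiple of 3. Of its 9 gaps, 6 were 100 bases or longer, the longest being 14405 bases. The match to NANOG covered 101 bases, 11.0% of the coding length, split as 56 and 45 bases over the sixth and seventh parts, at transcript positions 531 to 632. Its score of 101 was 14.2% of the highest.

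**Figure D1:**
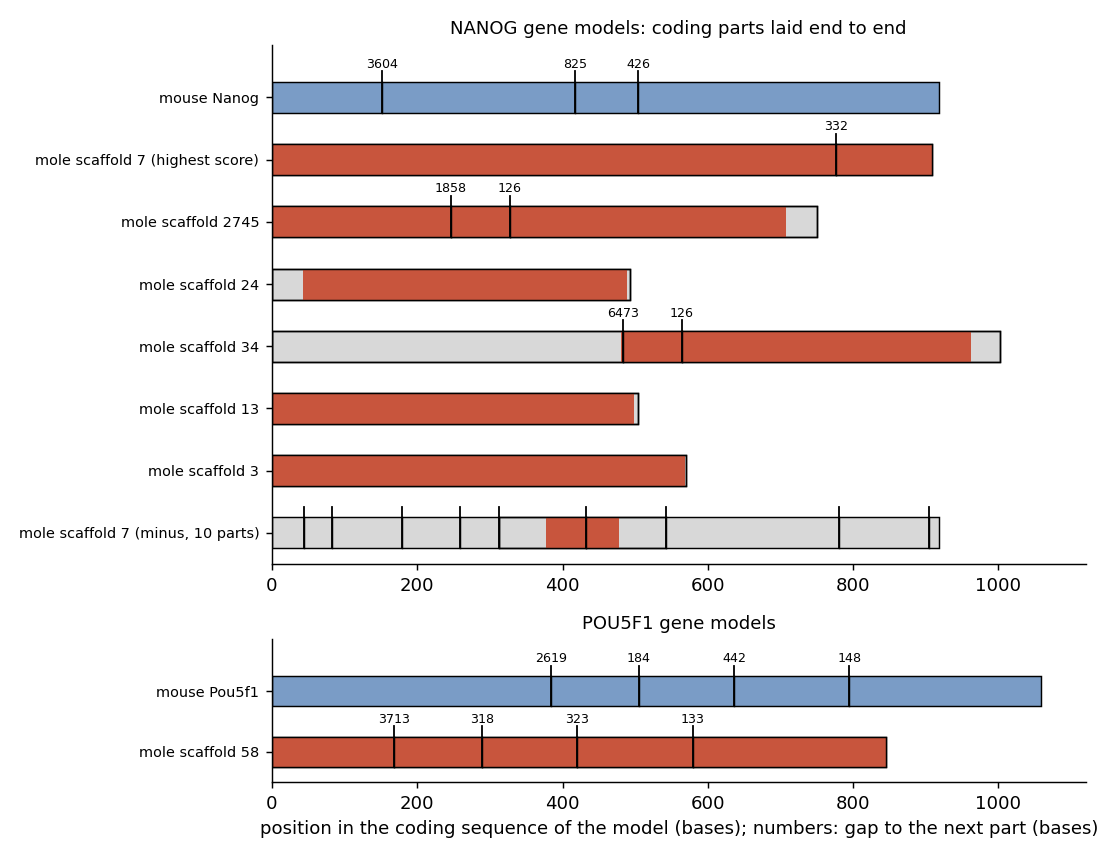
Coding parts of each gene model laid end to end, in bases on the horizontal axis; vertical ticks are junctions, numbers above them the gap in bases to the next part (not printed for the 10-part model). Red marks what was aligned to the reference transcript, grey what was not, and blue the mouse genes with stop codon; the scaffold 2745 and scaffold 34 models share a part of 81 bases before a gap of 126, and the highest-scoring model has its only gap after 776 bases.

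A rule for retrocopy-like models asked for no gap of 100 bases or more and for a match that crosses a junction of the best intron-containing model of the symbol, or, on another transcript, for a coding length above every part of that model. By this rule 0 of the 6 further NANOG loci were retrocopy-like. Over all symbols that could be classed, 33.7% of further loci were (1537 of 4562). The single POU5F1 model has introns and no further locus, so its count of 0 was fixed in advance. The rule took the scaffold 7 model as the intron-containing reference, because its gap of 332 bases passed as an intron. Counting models with a single part gave 3 of the 6 further NANOG loci. The same count gave 54.5% of all further loci (2886 of 5294), and 47.9% (2218 of 4626) over symbols with at least 1 model of several parts. When a gap had to reach 400 bases, a setting chosen after seeing the data, NANOG_copy2 became the reference and 4 models counted: the 3 single-part ones and the highest-scoring one on scaffold 7. None of these 4 was matched to the transcript of NANOG_copy2. All 4 counted by a coding length above its longest part, 423 bases, and not by a crossed junction. With junctions of any intron-containing model on the same transcript, also added later, NANOG_copy5 and NANOG_copy6 counted, which share theirs with NANOG_copy4. The number of retrocopy-like NANOG models thus lay between 0 and 4, and the highest-scoring model counted only where its 332-base gap was not taken as an intron. The longest part was at least 50 bases longer than the longest mouse coding exon, 414 bases, in 5 of the 7 models. No share over all symbols stands beside this count, so how usual it is cannot be said. In NANOG_copy4 this was the first part, of which 2 of 483 bases were aligned, and in NANOG_copy3 446 of its 493 bases were aligned.

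The rank of the models changed when the score was divided by the aligned bases. The highest-scoring model had 0.781 per aligned base and was passed on this scale by NANOG_copy2, which had 0.819. NANOG_copy3 had 0.717, NANOG_copy4 0.651, NANOG_copy5 0.602 and NANOG_copy6 0.390. NANOG_copy7 had 1 per aligned base, over its 101 bases. All 7 were below 1.20, the median over the 21470 named loci with a match (quartiles 0.887 and 1.40), and POU5F1, at 1.45, was above the upper quartile.

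**Figure D2:**
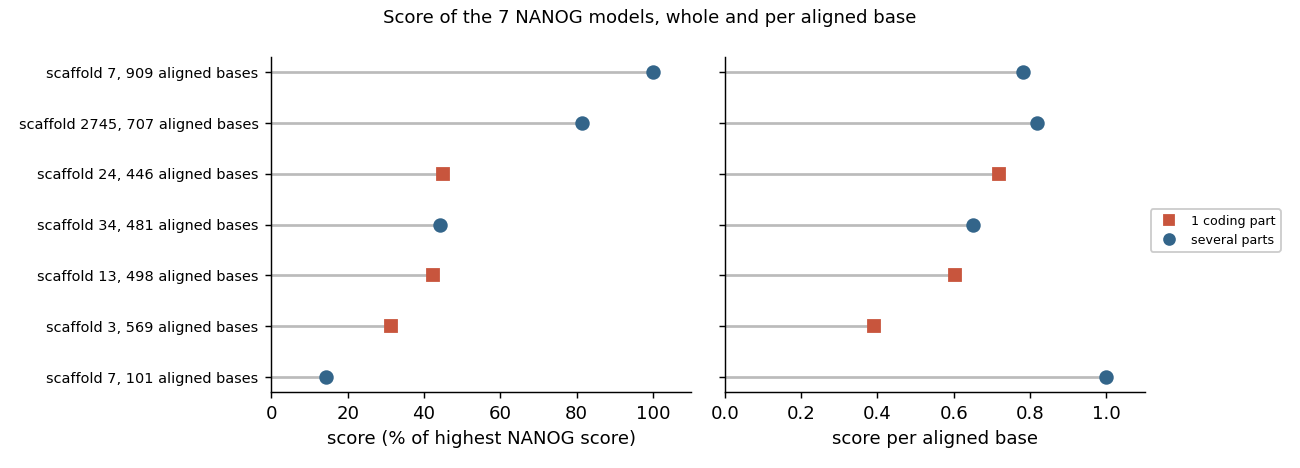
Score of each NANOG model as a percent of the highest NANOG score (left) and per aligned base (right), with 1 row per model; squares are models with 1 coding part, circles those with several. The model on scaffold 2745 passes the highest-scoring one per aligned base, 0.819 against 0.781, and the 10-part model on scaffold 7 reaches 1 over 101 bases.

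Only NANOG_copy4 lay among the genes that flank Nanog in mouse. On scaffold 34 its lower side held NANOGNB, a homeobox gene named as the neighbour of NANOG, at 12.8 kb, LINC01296 at 54.2 kb and GDF3, a TGF-beta family ligand expressed in pluripotent cells, at 65.0 kb. Its upper side held SLC2A3, a glucose transporter, at 15.3 kb, FOXJ2, a forkhead transcription factor, at 116 kb and C3AR1, the receptor of complement fragment C3a, at 139 kb. In mouse, on chromosome 6, Gdf3 lies at 97.8 kb on one side of Nanog, and Slc2a3 at 16.4 kb, Foxj2 at 115 kb and C3ar1 at 136 kb on the other. Of the 3 nearest named loci on each side, 4 were thus shared with mouse, and both the order and the distances on the upper side were close. Comparing neighbours with mouse was decided after seeing the data.

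The mouse gene between Gdf3 and Nanog is Dppa3, which encodes a maternal factor marking early germ cells. DPPA3 had no locus under its symbol in talOcc3. In the later mole assembly MPIMG_talOcc4v2.1, used for names and order alone, GDF3, DPPA3, NANOGNB, NANOG and SLC2A3 follow in this order, with 1 pseudogene in the interval, and that assembly names 1 NANOG and 1 POU5F1 gene. The place that talOcc3 gives to the fourth-ranked NANOG model is therefore where both mouse and the later assembly have NANOG.

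**Figure D3:**
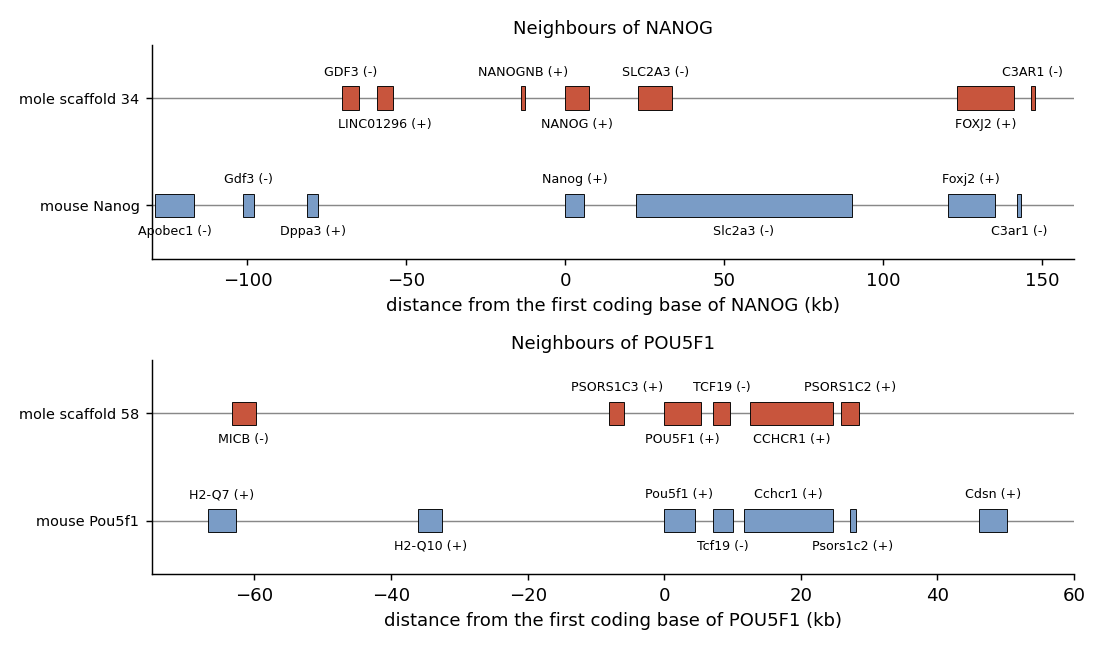
Genes around NANOG_copy4 and POU5F1 in the mole (red) and around Nanog and Pou5f1 in mouse (blue), by distance in kb from the first coding base; box widths are gene models (mole) or coding spans (mouse), signs are strands, and the mole rows show the 3 nearest named loci on each side as far as they fall in the window. GDF3, SLC2A3, FOXJ2 and C3AR1 stand on the same sides and strands in both species, as do TCF19, CCHCR1 and PSORS1C2.

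The 5 other NANOG loci with named neighbours shared none of them with mouse Nanog, and NANOG_copy2, alone on its scaffold, could not be compared. The highest-scoring model lay 0.928 kb from SNX3, a sorting nexin of endosomes, and 31.1 kb from LACE1, a mitochondrial ATPase, with NR2E1, an orphan nuclear receptor, at 50.6 kb and FOXO3, a forkhead factor that keeps ovarian follicles dormant, at 197 kb. RPS24_copy18, named for a ribosomal protein, lay inside the SNX3 model, and ARMC2 was the remaining neighbour. SNX3 and FOXO3 stand 199.7 kb apart in the mole. Between their mouse counterparts on chromosome 10 there is 1 coding gene, Afg1l, the mouse name of LACE1, so mouse has no Nanog there. The later mole assembly has 2 protein-coding genes, 0 pseudogenes and 2 long noncoding RNAs in that interval, AFG1L among them, and none named NANOG.

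NANOG_copy3 stood between JADE3 and RP2, genes that are X-linked in mouse with no coding gene between them. RPL26_copy9 lay at 24.1 kb and JADE3, a chromatin scaffold protein, at 24.8 kb, with RGN beyond. On the other side RP2, a ciliary trafficking factor, lay at 76.5 kb, followed by SLC9A7 and CHST7. The later assembly has 2 protein-coding genes and 1 pseudogene between JADE3 and RP2. The mouse annotation has 2 processed pseudogenes named for Nanog. Nanog-ps1 (chrX:89883389-89883638, GRCm38) spans 250 bases and Nanog-ps2 (chr12:61458510-61459038) 529 bases. The 3 single-part mole models span 493 to 570 bases, so the first is shorter than all of them and the second within their range. Whether either corresponds to a mole locus was not tested.

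NANOG_copy5 stood in an interval of 950 kb between TRIML2 and FAT1. ATP6V1G1_copy3 lay at 62.8 kb, ZFP42 (REX1), a zinc finger protein and itself a pluripotency marker, at 102 kb and TRIML2 at 171 kb. FAT1_copy2 lay at 777 kb on the other side, with FAT1_copy3 and FAT1, a giant cadherin, at about the same distance. In mouse, 5 coding genes lie between Triml2 and Fat1, Zfp42 among them, and none is Nanog. The later mole assembly has 1 protein-coding gene, ZFP42, 3 pseudogenes and 1 long noncoding RNA there.

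NANOG_copy6 and NANOG_copy7 stood farther from named genes. VAPA, an endoplasmic reticulum tether, lay 286 kb from NANOG_copy6 on one side, with TXNDC2 and RAB31_copy2 beyond. APCDD1, a WNT inhibitor, lay at 204 kb on the other, followed by NAPG and PIEZO2. RAN, named for a nuclear transport GTPase, lay 148 kb from NANOG_copy7 as a model with 1 exon. It was the highest-scoring of 7 RAN loci, but at least 2 neighbours of mouse Ran were found only at another RAN locus. MAP3K7, a kinase of TGF-beta signalling, lay 241 kb from NANOG_copy7, with BACH2 beyond. RPL5_copy5 lay at 369 kb on the other side, followed by GUF1_copy3 and GUF1_copy2. The nearest multi-exon, highest-scoring models around NANOG_copy7 that are also named in mouse were MAP3K7 and EPHA7. In the later assembly VAPA and APCDD1 enclose 2 pseudogenes, and MAP3K7 and EPHA7 enclose 5. Whether any of these pseudogenes is a NANOG copy was not tested. NANOG_copy2 had no neighbour, so its place in the genome cannot be read from the annotation.

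POU5F1 had a single model with the exon structure of the mouse gene. It lay on scaffold 58 (last annotated base 830416) from 180197 to 185529 on the plus strand, was labelled EVM, and had parts of 168, 121, 131, 159 and 267 bases with introns of 3713, 318, 323 and 133 bases. Mouse Pou5f1 has coding exons of 384, 121, 131, 159 and 264 bases and introns of 2619, 184, 442 and 148 bases. The 3 inner exons had the same lengths in both species, the first of them printed above for mouse, and the first mole part was shorter. The coding length of 846 bases, a multiple of 3, was aligned in full to transcript positions 311 to 1156, with a score of 1223.

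The genes beside POU5F1 on one side were those of mouse. TCF19, a nuclear factor with a forkhead-associated domain, lay at 1.86 kb, CCHCR1, a centrosomal coiled-coil protein, at 7.20 kb and PSORS1C2 at 20.6 kb. In mouse, on chromosome 17, these distances are 2.63, 7.19 and 22.7 kb. On the other side the mole annotation had PSORS1C3 at 5.86 kb, MICB at 59.8 kb and MICA at 106 kb, which carry names of the human MHC region. Mouse has MHC class I genes there, the nearest being H2-Q10 at 32.5 kb. Thus 3 of the 6 nearest named loci were shared, all of them on the upper side.

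NANOG had more loci than most named genes, while 1 locus was the usual case. Of the 16196 symbols, 14.6% (2371) had more than 1 locus and 0.778% (126) had 7 or more; 19 had exactly 7, and 13825 had 1, as POU5F1 did. Among the 126 symbols, 66 had a highest-scoring locus with more than 1 exon, against 14777 of all 16196 symbols. Of the 126, 89 were spread over at least 6 scaffolds, as NANOG was. The count depended on low-scoring models: with at least 50% of the highest score, NANOG had 2 loci and 8.34% of symbols had as many or more.

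**Figure D4:**
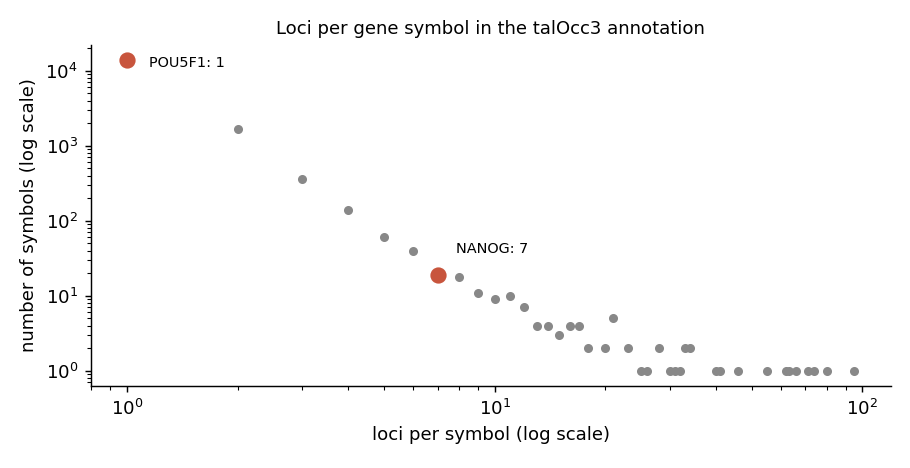
Number of gene symbols (vertical, log scale) by number of loci per symbol (horizontal, log scale) in the mole annotation, 1 point per locus number. NANOG is 1 of 19 symbols with 7 loci and POU5F1 1 of 13825 with 1.

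Of 55 other genes of the pluripotency network, 46 had a locus and 5 of these, 10.9%, had several, with at most 3. The share over all symbols was 14.6%, and the median was 1 locus in both. SOX2, the partner of POU5F1 on DNA, had 1 locus with 1 exon and 954 coding bases. PRDM14, a regulator of germ cell specification, had 7 exons and 2043 coding bases, SALL4, a zinc finger factor of germ cells, 4 exons and 3198, and TFAP2C, another germ cell specification factor, 6 exons and 846. The 41 members with 1 locus had models of 1 to 34 exons. The 9 members with no locus under their symbol were DPPA3, DPPA4, UTF1, TDGF1, LEFTY1, L1TD1, TERT, DNMT3L and NR6A1; a gene may be present under another name.

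The 5 members with several loci differed in structure. KLF4, a reprogramming factor, had a single-exon model of 1456 bases on scaffold 25 and KLF4_copy2 on scaffold 1 with 5 parts, 2007 bases and 95.7% of the highest score. LIN28B, which blocks let-7 maturation, had 4 parts and 703 bases on scaffold 3 and LIN28B_copy2 with 2 parts, 264 bases and 78.1% on scaffold 7. DPPA2, a chromatin factor of early embryos, had a 14-exon model on scaffold 4 and single-exon models of 342 and 354 bases at 47.4% and 40.6%. The 14-exon model had 2061 coding bases, but its match spanned only transcript positions 490 to 1126. ZFX, an X-linked zinc finger factor, had models of 8 and 6 exons, the second at 61.5%. LEFTY2, a NODAL inhibitor, had both models on scaffold 14, the second at 56.2%.

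KLF4 and LIN28B showed the same arrangement as NANOG: the plain name and the highest score were on a locus without the mouse neighbours, and a lower-scoring locus had them. KLF4_copy2 shared 3 neighbours with mouse Klf4, namely RAD23B, ACTL7A and ACTL7B, and LIN28B_copy2 shared 5, BVES, GRIK2, HACE1, POPDC3 and PREP; the plain-named loci shared 0. Of the 5 network members with several loci, 3 had a locus with at least 2 of the mouse neighbours, and these 2 were among them. Over all symbols the arrangement occurred in 9.65% of those that could be asked (174 of 1803, exact 95% binomial interval 8.33 to 11.1, over symbols). It was 14.9% with the best locus taken by score per aligned base. The comparison was made after seeing the NANOG loci, and 3 members are too few to set against that share.

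In the list of 17 other POU and NANOG family genes, 12 had a locus and 1 of these, 8.33%, had several. The share over all symbols was 14.6%, and 12 genes are too few to set against it. POU3F1, POU3F3, POU5F2 and the human pseudogene names NANOGP1 and NANOGP8 had no locus under those symbols, so no extra NANOG model was listed under either pseudogene name.

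The genes most like NANOG by number of loci and of retrocopy-like loci, and then by coding length, were chemosensory receptors. In all, 7 other symbols had 7 loci and 0 retrocopy-like ones, and the 5 nearest to 909 bases were VN1R4 (891 bases), OR4C11 (930), OR2H1 (936), OR5B12 (942) and OR8H1 (945). VN1R4 is a vomeronasal receptor and the others are olfactory receptors, and the best locus of each had 1 exon, so that their models resemble NANOG in number and length but not in having introns. Their retrocopy-like count of 0 says little, since few or none of their models have introns, and that of NANOG was 2, 3 or 4 under 3 of the other settings. For POU5F1, 13824 other symbols had 1 locus and 0 retrocopy-like ones. The first 5 in alphabetical order with the same 846 coding bases were ADGRB1, ASRGL1, CABP2, CACNG1 and ELOVL1; RAD1, a DNA damage checkpoint gene, was the only symbol with both 846 bases and 5 exons, chosen after its values were seen.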

How the data were processed

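For the 35 libraries, STAR 2.6.1d and mm9 (a mouse build) are listed in the submitters' processing notes. The file used was the talOcc3 annotation, with 1-based positions as deposited and no column per library; 0 columns of per-sample values were left unused. The score on each transcript model was deposited by the authors, with the highest score of the symbol (maxscore) and the matched interval of a reference transcript. The sources used here do not give what the score counts or how models labelled EVM, ALN or exonerate were built. Groups came from titles, because the strain labels of the 4 Fgf9-comparison libraries differ by a running number.

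Gene lines were joined to their parts with Python 3.11.15, scipy 1.17.1 and numpy 2.4.6, and drawn with matplotlib 3.10.9. A copy suffix or low-confidence mark was dropped from names. Mouse genes came from GENCODE M21 (GRCm38); no coordinate was converted between builds. No mole sequence was used here. Shared neighbours were counted among the 3 nearest on each side, of genes named in both species.

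The genes named were all members, their 3 nearest named loci on each side, list members with 0 or several loci, and up to 5 symbols with the most similar pattern, with single-locus list members as examples. A gene that this rule would name is not reported here. The members and lists were chosen with earlier results of these data known. Counts of loci and of retrocopy-like loci were tested on simulated data, where 2000 of 2000 symbols came out right. In each simulated symbol the highest-scoring model was the intact gene with introns, and its copies matched the same transcript. Copies matched to another transcript, or another kind of highest-scoring model, did not occur there. The simulation therefore does not check how the NANOG models were classed. Alternatives changed coding length, score, last annotated base of the scaffold, low-confidence loci, gap length and the retrocopy rule. With no value per library in the file, no test between groups was made; intervals are exact binomial, at a level of 95%.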

Additional observations from a re-analysis of the deposited data

How the results depend on the processing

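Of 59 values recomputed under alternatives, 46 kept within the margin set for them, 13 moved and 0 reversed. The margin took in a fall of the NANOG count from 7 to 6 on scaffolds annotated to 10000 or beyond, where NANOG_copy2 dropped out. There 0.817% of symbols (132) had 6 loci or more. Some of the 46 could not move. Among these were the POU5F1 counts of loci and retrocopy-like loci, and the share of symbols with at least as many loci as POU5F1, which is 100% by definition. The NANOG count could not move with coding length or low-confidence loci: the shortest model has 493 bases and none carries that mark. The NANOG retrocopy-like count was fixed at gaps of 30 and 200 bases, where the 332-base gap kept the same reference. Keeping loci with at least 50% of the highest score left 2 NANOG loci; by construction fewer loci were counted, and 8.34% of symbols then had more than 1 locus and the same 8.34% had as many as NANOG. No POU or NANOG family member then had several (0). The share of symbols with more than 1 locus was 12.8% with a coding length of at least 300 bases. It was 13.7% on scaffolds annotated to 10000 or beyond. NANOG retrocopy-like loci, 0 by the rule, were 3 as single-exon models, 2 with junctions of any model sharing the transcript and 4 with a gap of 400 bases; the last 2 settings were chosen after seeing the data. The share of further loci that were retrocopy-like was 32.2% on scaffolds annotated to 10000 or beyond. It was 47.9% as single-exon models and 35.5% with a gap of 400 bases. With the best locus taken by score per aligned base, also added later, 14.9% of symbols had their best locus away from the mouse neighbours; the cause was not tested. POU5F1 stayed at 1 locus and 0 retrocopy-like loci under each setting run, but none of these settings could have changed this. Its only model sets its own highest score and has 846 coding bases. It lies on a scaffold annotated to 830416 and has an intron of 3713 bases. No paired analysis was possible because no column belongs to a library. Library depth limits none of these values, since no reads enter them. Fragments of the assembly may limit them, but this was not tested. NANOG_copy2, alone on its scaffold, sets the last annotated base there, so that base does not show whether the model is cut off.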
